A study of Sus scrofa with 17 samples.

Results

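BCAT2, SLC16A6 and ARRDC4 are 3 of the 26560 genes counted in biopsies of 17 porcine kidneys. They were grouped as genes of fuel use in the cell and were selected on their measured values in the comparison of G3 with G1, where BCAT2 and SLC16A6 were lower and ARRDC4 was higher in G3. Their values in that comparison are therefore given as a description, without a test. The comparisons of G2 with G1 and of G3 with G2 were tested, but they share the G1 or the G3 kidneys with the comparison that chose the genes.

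BCAT2 encodes the mitochondrial branched-chain aminotransferase, which moves the amino group of leucine, isoleucine or valine onto alpha-ketoglutarate and gives glutamate and a branched-chain keto acid. This reversible step comes before the branched-chain keto acid dehydrogenase, which commits the carbon skeleton to oxidation. SLC16A6 (also called MCT7) belongs to the SLC16 family of monocarboxylate transporters, whose best known members carry lactate, pyruvate and ketone bodies, and it has been tied to the export of ketone bodies from liver cells. ARRDC4 is an alpha-arrestin, an adaptor protein related to TXNIP. Both have been described as brakes on glucose uptake, and both genes are known targets of the glucose-sensing transcription factors MondoA and ChREBP. The proximal tubule, which makes up much of the renal cortex, oxidizes fuels such as fatty acids, lactate and amino acids and makes glucose.

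All kidneys came from farm pigs of the Dutch Landrace breed that were slaughtered at an age between 6 months and 1 year, with 1 kidney used from each animal and no genetic alteration described. Every kidney had 32 min of warm ischemia, 24 h of hypothermic machine perfusion (HMP) and 5 h of normothermic machine perfusion (NMP), and the biopsy was taken at the end of NMP, so that no group shows the kidney before ischemia. G1 (5 kidneys) received the PBS vehicle in both perfusions, G2 (6 kidneys) received extracellular vesicles from porcine urine progenitor cells (pUPC-EVs, in PBS) in HMP only, and G3 (6 kidneys) received pUPC-EVs in HMP and again in NMP. Total counts per kidney ran from 19270046 to 24736473, and 18813 to 21049 genes had at least 1 count. The 3 kidneys with under 19000 genes detected were G2 kidneys 3 and 6 and G3 kidney 6. Levels are given as CPM (counts scaled to a common library size) after TMM scaling, which corrects the library size for differences in composition. Log2 fold changes come from edgeR and are given with their standard error (SE).

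All 17 animals are labelled female, and the counts of EIF1AY, which RefSeq places on chromosome Y, went against that label in 7 kidneys. EIF1AY had 403 to 589 counts in these 7 kidneys and 0 to 4 counts in the other 10. The 7 were not spread evenly: 1 of 5 in G1 (kidney 5), 1 of 6 in G2 (kidney 2) and 5 of 6 in G3 (all but kidney 3). The level of EIF1AY thus moved with the group, and each fold change of the 3 members is also given without these 7 kidneys and with the EIF1AY level as a covariate. Both settings were chosen after seeing the data. Without the 7 kidneys, G3 is G3 kidney 3 alone, which the fit takes to vary as much as the other kidneys do.

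BCAT2 (ENSSSCG00000003139, chr6:54107682-54123595 in the RefSeq annotation of Sscrofa11.1) was lower in every G3 kidney than in any G1 kidney. In G1 its level was 142, 103, 123, 124 and 136 CPM in kidneys 1 to 5. In G2 it was 82.0, 57.0, 104, 127, 58.8 and 133 CPM in kidneys 1 to 6, and in G3 it was 71.1, 78.3, 73.9, 74.7, 69.1 and 78.4 CPM. G1 and G3 did not overlap, and G2 spanned both: G2 kidneys 1, 2 and 5 lay below all G1 kidneys, the other 3 lay within the G1 range, and G2 kidneys 2 and 5 lay below all G3 kidneys too.

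The mean of BCAT2 was 126 ± 14.7 CPM in G1 (SD, n = 5), 93.5 ± 32.9 CPM in G2 (SD, n = 6) and 74.2 ± 3.74 CPM in G3 (SD, n = 6). The spread itself was unlike between the groups treated with pUPC-EVs, with a coefficient of variation of 35.2% in G2 and 5.04% in G3, against 11.7% in G1. No test of the difference in spread was made. Against G1, BCAT2 differed by a log2 fold change of -0.77 (SE 0.10) in G3, which is 0.587 of the G1 level. BCAT2 was 1 of the 48 genes, among 25719 tested, whose G3 kidneys all lay below all G1 kidneys (0.187%), and edgeR called 2 genes in all at an adjusted p of 0.05 (0.00778%). This is the comparison that chose the gene, and nothing is read from these counts.

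Where the comparison did not choose it, BCAT2 was not called. Between G2 and G1 the log2 fold change was -0.43 (SE 0.21), with a 95% interval of -0.86 to 0.01, an unadjusted p of 0.0537 and an adjusted p of 0.840. Between G3 and G2 it was -0.33 (SE 0.19), with an interval of -0.73 to 0.07 and an adjusted p of 0.948. Without the 3 kidneys with under 19000 genes detected, these values were -0.64 (SE 0.20) between G2 and G1 and -0.14 (SE 0.19) between G3 and G2, and without G2 kidney 6 the value between G3 and G2 was -0.20. Both intervals reach from a lower level to no change, and the adjusted p does not show that the groups were alike.

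The difference of BCAT2 between G3 and G1 was close to the same with and without the kidneys that went against their label. The log2 fold change was -0.73 (SE 0.24) without the 7 kidneys with many EIF1AY counts and -0.81 (SE 0.14) with the EIF1AY level as a covariate. In G1, kidney 5 with many EIF1AY counts had 136 CPM of BCAT2, beside 123 ± 15.6 CPM in the other kidneys (SD, n = 4). In G3, kidney 3 with none had 73.9 CPM, beside 74.3 ± 4.18 CPM in the other 5. Against G2, the value for G3 went from -0.33 to -0.02 (SE 0.27) with the covariate and to -0.46 (SE 0.39) without the kidneys, so the 2 settings moved it in opposite directions. G2 kidney 2, the one with many EIF1AY counts, had the least BCAT2 of G2. Of G2 against G1, the value was -0.46 (SE 0.21) with the covariate and -0.29 (SE 0.21) without the kidneys.

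**Figure D1:**
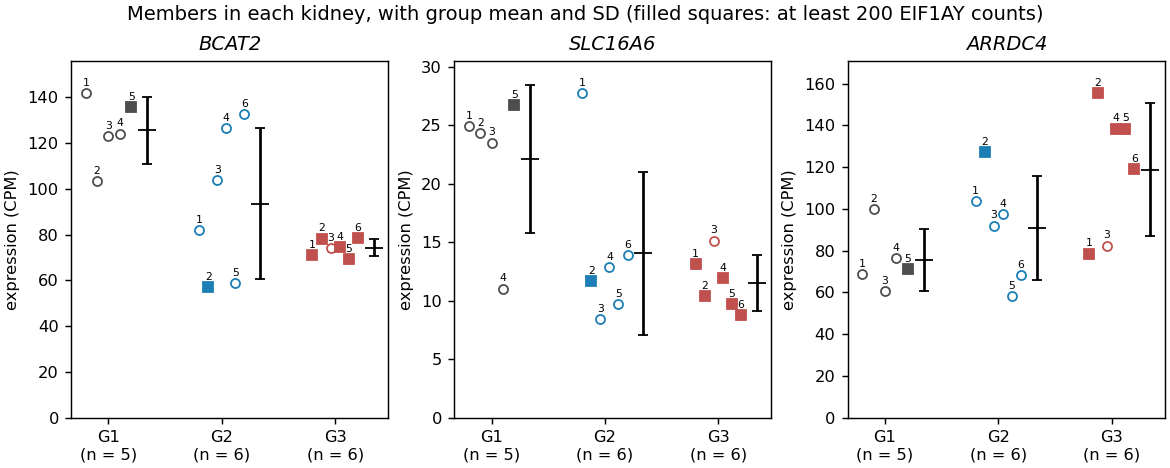
Expression of BCAT2, SLC16A6 and ARRDC4 (vertical axes, CPM, each from 0) in each kidney of G1 (n = 5), G2 (n = 6) and G3 (n = 6), with the kidney number above each point and the group mean and SD beside the points. Filled squares are the 7 kidneys with at least 200 EIF1AY counts and open circles the other 10. BCAT2 lies between 69.1 and 78.4 CPM in G3 and between 57.0 and 133 CPM in G2, and SLC16A6 is low in 1 kidney of G1 and high in 1 kidney of G2.

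SLC16A6 (ENSSSCG00000017262, chr12:11857832-11875317 in the same annotation) had the lowest counts of the 3 genes, from 166 to 615 per kidney, and 2 kidneys that stood apart from their groups. In G1 it was at 24.9, 24.4, 23.5, 11.03 and 26.7 CPM in kidneys 1 to 5. In G2 it was at 27.7, 11.7, 8.44, 12.9, 9.69 and 13.9 CPM, and in G3 at 13.1, 10.4, 15.1, 11.95, 9.71 and 8.76 CPM. G1 kidney 4 was low, at the level of the treated kidneys, and G2 kidney 1 was high, above all G1 kidneys. The other 4 kidneys of G1 lay above all of G3 and above the other 5 kidneys of G2.

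The means were 22.1 ± 6.31 CPM in G1 (SD, n = 5), 14.0 ± 6.99 CPM in G2 (SD, n = 6) and 11.5 ± 2.36 CPM in G3 (SD, n = 6). SLC16A6 differed between G3 and G1 by a log2 fold change of -0.95 (SE 0.21), 0.518 of the G1 level, and 3 of 6 G3 kidneys lay below all G1 kidneys. Between G2 and G1 the log2 fold change was -0.66 (SE 0.28), with a 95% interval of -1.24 to -0.07. The unadjusted p was 0.0299, as for 537 genes lower in G2 at an unadjusted p under 0.05 (2.09% of 25699 genes tested), and the adjusted p was 0.840. SLC16A6 was the only one of the 3 genes among these 537, and no gene was called between G2 and G1 at an adjusted p of 0.05 by edgeR (0.0%). DESeq2 called 1 gene there, which was none of the 3, and 901 genes in both directions had an unadjusted p under 0.05 in edgeR.

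These values of SLC16A6 turned on the 2 kidneys. Without G1 kidney 4, SLC16A6 differed between G3 and G1 by -1.12 on the log2 scale. Without G2 kidney 1, the value between G2 and G1 went from -0.66 to -0.97, and without both kidneys to -1.15 (SE 0.17), with an adjusted p of 0.168. These kidneys were set aside for their SLC16A6 level itself, so the smaller error is fixed by that choice. Between G3 and G2 the log2 fold change was -0.28 (SE 0.25) with an adjusted p of 0.974, and it was 0.04 (SE 0.18) without G2 kidney 1 and -0.12 with the run of sample codes, A to C, as a covariate.

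The difference of SLC16A6 was smaller without the kidneys that went against their label. Without the 7 kidneys with many EIF1AY counts, it differed between G3 and G1 by -0.47 on the log2 scale (SE 0.39), from the 15.1 CPM of G3 kidney 3 beside 21.0 ± 6.65 CPM in G1 (SD, n = 4). With the EIF1AY level as a covariate it was -0.91 (SE 0.25). Between G2 and G1 it was -0.53 (SE 0.31) without the kidneys and -0.65 (SE 0.28) with the covariate. These 4 values kept the direction of the fit on all kidneys. The small difference between G3 and G2 was -0.01 (SE 0.31) with the covariate and 0.05 (SE 0.51), with the sign turned, without the kidneys.

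ARRDC4 (ENSSSCG00000002252, chr7:81656760-81669584 in the same annotation) was the member that was higher in G3, and its groups overlapped. In G1 it was at 68.5, 99.7, 60.4, 76.4 and 71.1 CPM in kidneys 1 to 5. In G2 it was at 103, 127, 91.9, 97.4, 58.2 and 68.1 CPM, and in G3 at 78.5, 155, 82.4, 138, 138 and 119 CPM. In G3, 4 of 6 kidneys lay above all G1 kidneys, and kidneys 1 and 3 lay within the G1 range. In G2, kidneys 1 and 2 lay above all G1 kidneys and kidney 5 below all of them.

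The means followed the order of the groups, with 75.2 ± 14.8 CPM in G1 (SD, n = 5), 91.0 ± 24.9 CPM in G2 (SD, n = 6) and 119 ± 31.8 CPM in G3 (SD, n = 6), with neighbours in this order less than their summed SDs apart. G3 differed from G1 by a log2 fold change of 0.65 (SE 0.18), or 1.57 times the G1 level. Between G2 and G1 it was 0.28 (SE 0.19), with a 95% interval of -0.12 to 0.67 and an adjusted p of 0.840, and ARRDC4 was not among the 364 genes higher in G2 at an unadjusted p under 0.05 (1.42%). Without G2 kidney 2 this value was 0.16. Between G3 and G2 it was 0.39 (SE 0.20), with an interval of -0.03 to 0.81 and an adjusted p of 0.948, and edgeR called no gene in that comparison at an adjusted p of 0.05 (0.0% of 25701 genes tested). There, 805 genes had an unadjusted p under 0.05 in edgeR, and DESeq2 called 3 genes, none of them a member.

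Of the 3 genes, ARRDC4 was the one whose difference shrank most when the EIF1AY level was taken into account. Without the 7 kidneys with many EIF1AY counts ARRDC4 differed between G3 and G1 by a log2 fold change of 0.11 (SE 0.27), from the 82.4 CPM of G3 kidney 3 beside 76.3 ± 16.9 CPM in G1 (SD, n = 4). With the covariate it was 0.46 (SE 0.25). The 5 G3 kidneys with many EIF1AY counts had 126 ± 29.4 CPM, G2 kidney 2 had 127 CPM, the highest of G2, and G1 kidney 5, also with many EIF1AY counts, had 71.1 CPM, the median of G1. Between G3 and G2 the value went from 0.39 to -0.00 (SE 0.23) with the covariate and to -0.03 (SE 0.32) without the kidneys. Of G2 against G1, it was 0.26 (SE 0.18) with the covariate and 0.13 (SE 0.19) without the kidneys. G1 and G2 each held 1 kidney with many EIF1AY counts and G3 held 1 without, so the fits with the covariate rest largely on these 3 kidneys.

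**Figure D2:**
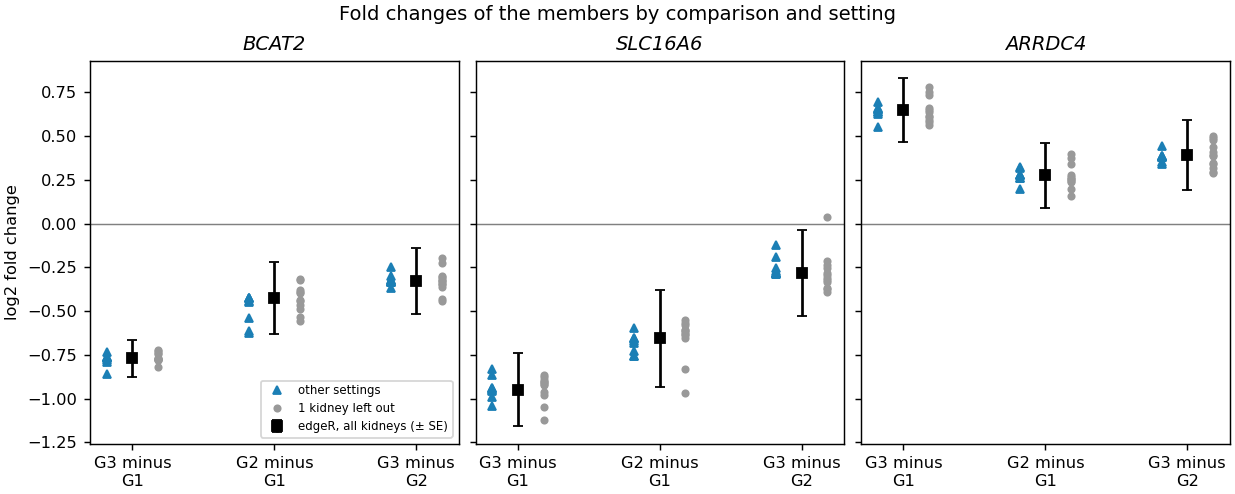
Log2 fold change (vertical axis) of each gene between G3 and G1, G2 and G1, and G3 and G2. Black squares are the edgeR fit on all kidneys with its standard error, blue triangles the 9 other settings, and grey points the fits that leave out 1 kidney. All values keep their sign except that of SLC16A6 between G3 and G2, which is 0.04 without G2 kidney 1.

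The direction of the 3 genes between G3 and G1 was also read within the series of sample codes, since the code numbers fall into 3 runs (A, B and C) that may stand for rounds of collection, which the labels do not say. G1 has 2, 2 and 1 kidneys in runs A, B and C, G2 has 2, 0 and 4, and G3 has 1, 1 and 4. On log2 CPM, BCAT2 differed between G3 and G1 by -0.77, -0.66 and -0.88 in runs A, B and C. SLC16A6 differed by -0.91, -0.62 and -1.26. For BCAT2 the sign in each run follows from the lack of overlap between G3 and G1, so it adds nothing to that. ARRDC4 differed by -0.07 in run A, where G3 is kidney 1 alone, and by 1.19 and 0.72 in runs B and C. Between G2 and G1, BCAT2 differed by -0.82 in run A and -0.43 in run C, SLC16A6 by -0.45 and -1.27, and ARRDC4 by 0.47 and 0.12.

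Of G3 against G2, run A gave 0.06 for BCAT2, -0.46 for SLC16A6 and -0.55 for ARRDC4, and run C gave -0.44, 0.02 and 0.60. The sign between G3 and G2 thus differed between the runs for each of the 3 genes, but 0.06 for BCAT2 and 0.02 for SLC16A6 are small. Run A sets 1 G3 kidney against 2 G2 kidneys, and these include G2 kidney 1, which stood apart for SLC16A6.

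No relation between 2 of the 3 genes passed the test from kidney to kidney. In G2, kidney 2 had the least BCAT2 and the most ARRDC4, kidney 5 had nearly as little BCAT2 and the least ARRDC4, and kidney 1, with the most SLC16A6, was in the middle for BCAT2. Within a group, 6 relations were computed (3 pairs of genes in G2 and in G3). Pearson's r ran from -0.70 for SLC16A6 and ARRDC4 in G3 (Spearman's rho -0.43, exact permutation p = 0.156 for r and 0.419 for rho, two-sided, n = 6) to 0.32 for BCAT2 and ARRDC4 in G3 (rho 0.37, exact permutation p = 0.508 and 0.497, n = 6). After Benjamini-Hochberg adjustment over the 6 relations, the exact permutation p for r was 0.930 to 0.958 (n = 6). Without the 2 kidneys farthest from the median of the first gene, the 2 values were -0.78 and 0.86. For BCAT2 and SLC16A6 in G3, r was -0.29 and turned to 0.82 when the counts were scaled by library size only (exact permutation p = 0.553 and 0.0667, n = 6), so its sign depended on the scaling. Over all 17 kidneys, after the group means were removed, r was 0.06 for BCAT2 and SLC16A6, -0.13 for BCAT2 and ARRDC4 and -0.05 for SLC16A6 and ARRDC4.

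The other genes of branched-chain amino acid breakdown did not pass the test between G3 and G1. Of the 26 other genes of that pathway, none passed even an unadjusted p of 0.05 between G3 and G1 in edgeR, where 1.94% of all genes tested did so in the higher and 2.79% in the lower direction. Their median log2 fold change was 0.05, beside -0.02 over all genes tested, and 16 of 26 had a positive sign, beside 12071 of 25719. BCAT1, the cytosolic aminotransferase that carries out the same reaction, had 91.8 ± 26.9 CPM in G1 (SD, n = 5), 91.1 ± 24.8 CPM in G2 (SD, n = 6) and 97.5 ± 18.8 CPM in G3 (SD, n = 6). G3 differed from G1 by 0.08 on the log2 scale (SE 0.18), and by 0.37 (SE 0.20) with the EIF1AY level as a covariate.

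The genes of the dehydrogenase that takes up the keto acids made by BCAT2 were among these 26. BCKDHA and BCKDHB, its decarboxylase subunits, had log2 fold changes of 0.09 (SE 0.12) and 0.08 (SE 0.11) between G3 and G1, and BCKDK, the kinase that inactivates it, had -0.00 (SE 0.14). PPM1K, the phosphatase that activates it, was at 34.2 ± 4.79 CPM in G1 (SD, n = 5), 24.2 ± 10.7 CPM in G2 (SD, n = 6) and 28.7 ± 6.21 CPM in G3 (SD, n = 6). PPM1K was the only gene of these 26 with an unadjusted p under 0.05 between G2 and G1 (log2 fold change -0.50, SE 0.23, unadjusted p = 0.0411, adjusted p = 0.840), and G2 kidney 2, with 44.9 CPM, was above all G1 kidneys. The genes nearest to the threshold between G3 and G1 were ECHS1, an enoyl-CoA hydratase of the valine branch, with -0.26 (SE 0.12), and ACADSB, the dehydrogenase of the isoleucine branch, with 0.30 (SE 0.16). None of the 7 transporters of branched-chain amino acids passed an unadjusted p of 0.05 in either comparison with G1. These include SLC7A5 with 0.08 (SE 0.17) between G3 and G1 and the mitochondrial carrier SLC25A44 with 0.17 (SE 0.18).

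Among the other aminotransferases, 1 of 16 passed an unadjusted p of 0.05 between G3 and G1. It was PSAT1, of serine synthesis, with 332 ± 59.4 CPM in G1 (SD, n = 5) and 256 ± 52.5 CPM in G3 (SD, n = 6). Its log2 fold change was -0.38 (SE 0.15), with an adjusted p of 0.813. Of G2 against G1, 1 of 16 passed as well, KYAT1, a kynurenine aminotransferase, with -0.29 (SE 0.13, adjusted p = 0.840).

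The family of SLC16A6 was measured in the same way. Of 16 other genes of monocarboxylate transport that were matched and tested, of 19 listed, none passed an unadjusted p of 0.05 between G3 and G1 or between G2 and G1. Their median log2 fold change was 0.08 between G3 and G1 and 0.13 between G2 and G1. SLC16A3 (MCT4), a lactate exporter of glycolytic cells, had 60.8 ± 10.1 CPM in G1 (SD, n = 5) and 47.2 ± 17.7 CPM in G3 (SD, n = 6). With the EIF1AY level as a covariate its log2 fold change was -0.15 (SE 0.22), and without it -0.38 (SE 0.20). SLC16A7 (MCT2), a high-affinity carrier of pyruvate and lactate, had 0.00 (SE 0.23), and SLC5A12, a sodium-coupled lactate carrier of the proximal tubule, had 0.08 (SE 0.17). SLC5A8, the other sodium-coupled carrier, had -0.72 with an SE of 0.55, over 1.74 to 22.6 CPM in G1 and 1.36 to 14.7 CPM in G3, so a change of the size seen for SLC16A6 was not detectable there. In the list of ketone body metabolism, none of 6 genes tested passed an unadjusted p of 0.05. OXCT1, which starts the use of ketone bodies, had 0.02 (SE 0.12) and BDH1, which interconverts them, had 0.04 (SE 0.22).

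Of the 9 genes tested in the list of ARRDC4, leaving out ARRDC4 itself, 1 had an unadjusted p under 0.05 between G3 and G1. It was TXNIP, the alpha-arrestin related to ARRDC4. In G1 TXNIP had 90.7 to 188 CPM with a median of 117 CPM, in G2 90.4 to 312 CPM with a median of 170.4 CPM, and in G3 147 to 235 CPM with a median of 183 CPM. The groups overlapped, with 1 kidney of G3 above all kidneys of G1. TXNIP differed between G3 and G1 by a log2 fold change of 0.44 (SE 0.17, unadjusted p = 0.0189, adjusted p = 0.813). With the EIF1AY level as a covariate it was 0.67 (SE 0.23), larger than without it, whereas that of ARRDC4 was smaller. ARRDC3, another alpha-arrestin, had 0.17 (SE 0.18) without the covariate and 0.41 (SE 0.19) with it (edgeR, unadjusted p = 0.0492, adjusted p = 0.999). NEDD4L, a ubiquitin ligase of the family that alpha-arrestins bind, had -0.21 (SE 0.13) without it.

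The levels of ARRDC4 and TXNIP were compared kidney by kidney within G2 and within G3. In G2, kidney 2 was the highest for both genes and kidney 5 the lowest for both, with r = 0.81 and rho = 0.94 (exact permutation p = 0.0417 and 0.0167, two-sided, n = 6). In G3 r was -0.19 and rho was -0.09 (exact permutation p = 0.619 and 0.919, n = 6). This pair was added after seeing the data, and over the 8 relations then computed the adjusted exact permutation p was 0.333 in G2 and 0.841 in G3 (n = 6). Neither relation passed after adjustment, and the difference between the groups was not tested. Without the 2 kidneys farthest from the median of ARRDC4, r was 0.91 in G2 and -0.99 in G3.

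**Figure D3:**
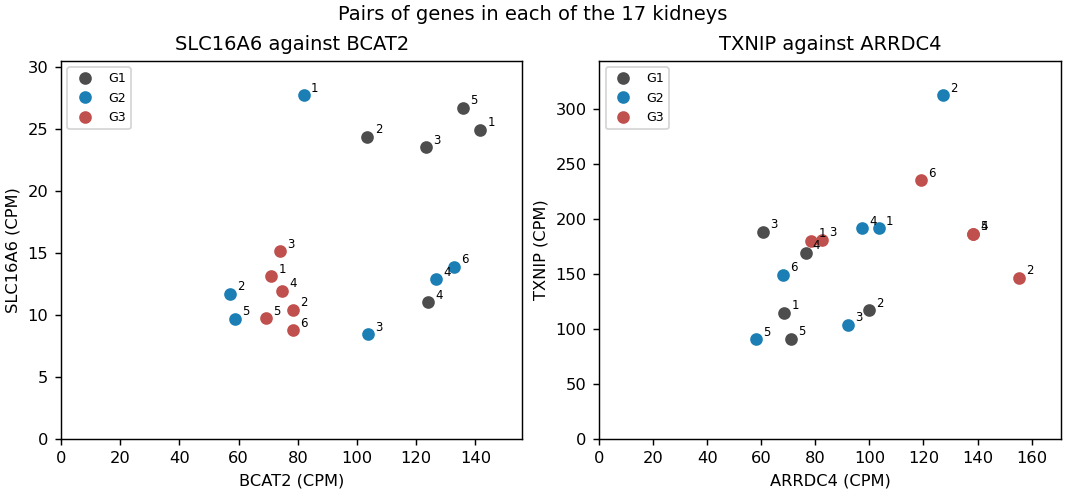
Level in each of the 17 kidneys (CPM on both axes, from 0) of SLC16A6 against BCAT2 and of TXNIP against ARRDC4, coloured by group, with kidney numbers beside the points. In the left panel G1 kidney 4 and G2 kidney 1 stand apart from their groups for SLC16A6, and in the right panel G2 kidney 2 is highest of G2 on both axes.

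The factors that act on ARRDC4 and TXNIP did not pass the test at the level of their own transcripts. MLXIP (MondoA) had a log2 fold change of 0.00 (SE 0.16) between G3 and G1, MLXIPL (ChREBP) of -0.33 (SE 0.32), and MLX, their shared partner, of -0.08 (SE 0.12). Of the other known targets, KLF10 had 0.02 (SE 0.15) and PKLR, the pyruvate kinase of liver and kidney, had -0.06 (SE 0.14). None of these 5 genes passed an unadjusted p of 0.05.

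**Figure D4:**
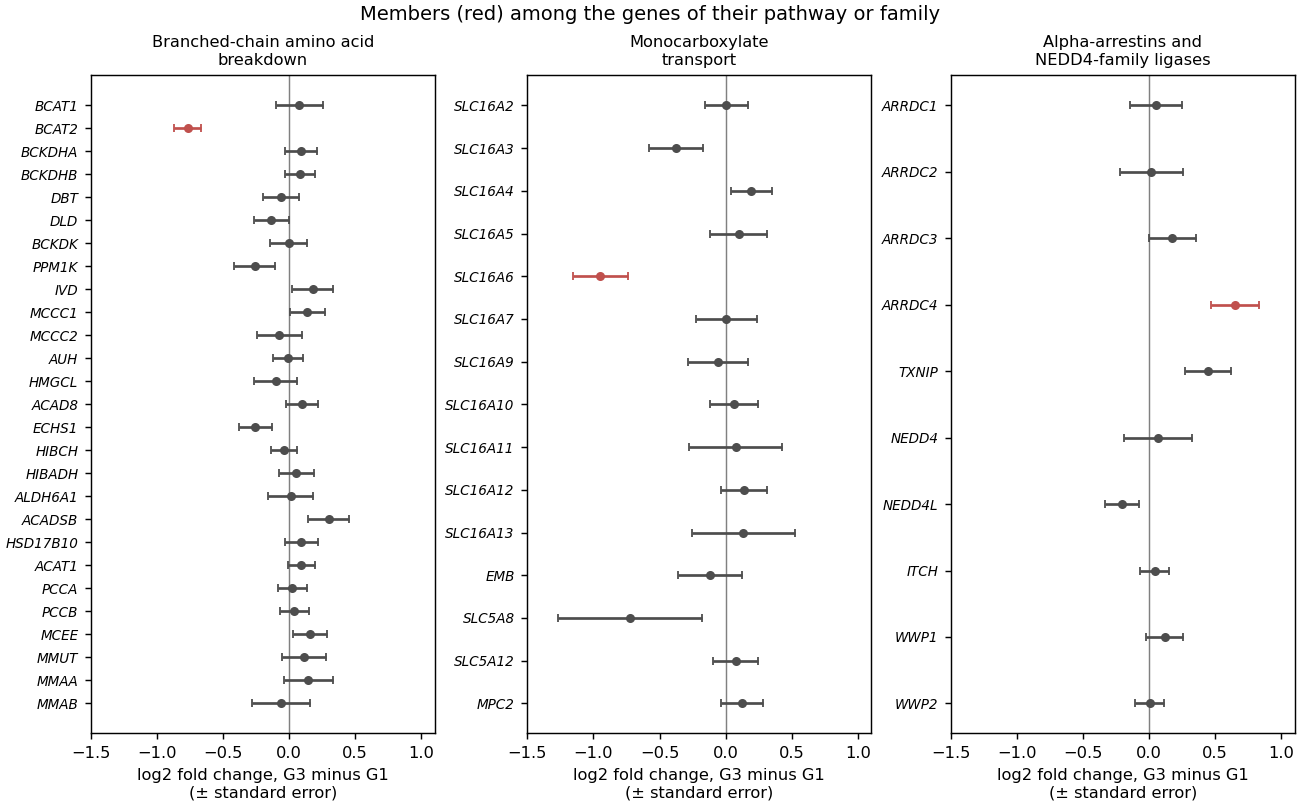
Log2 fold change between G3 and G1 with its standard error (horizontal axes) of each gene with a mean of at least 1 CPM over both groups in branched-chain amino acid breakdown, monocarboxylate transport, and the alpha-arrestins with the ubiquitin ligases they bind. The 3 members are in red. Each lies farther from 0 than any other gene in its panel, and they were chosen for it in this comparison.

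In wider fuel metabolism, no gene of the lists was called at an adjusted p of 0.05 in either comparison with G1. None of 8 genes of gluconeogenesis passed an unadjusted p of 0.05 between G3 and G1, although their median log2 fold change was 0.26 and 6 of 8 were positive. Of these 8, FBP2 was near 0 CPM. G6PC1, which releases glucose, had 437 ± 267 CPM in G1 (SD, n = 5) and 638 ± 280 CPM in G3 (SD, n = 6), a spread wider than the difference. None of 18 genes of the citrate cycle passed an unadjusted p of 0.05 either, with 17 positive and a median of 0.05. Over all genes tested 12071 of 25719 were positive, and of 9 proximal tubule markers 8 were. Of 11 genes around pyruvate dehydrogenase, 1 passed: PDK1, a kinase that inactivates it, with 21.7 ± 4.87 CPM in G1 (SD, n = 5), 17.5 ± 1.97 CPM in G3 (SD, n = 6) and a log2 fold change of -0.32 (SE 0.14, adjusted p = 0.813). None of 10 glucose transporters passed between G3 and G1. Between G2 and G1, SLC2A2 (GLUT2), the glucose carrier on the blood side of the proximal tubule, had 71.8 ± 6.74 CPM in G2 beside 57.3 ± 11.2 CPM in G1, a difference of 0.32 on the log2 scale (SE 0.13, unadjusted p = 0.0278, adjusted p = 0.840). No gene of glycolysis passed there. Between G3 and G1, 1 of 26 genes of glycolysis did, PFKFB1, which was near 0 CPM.

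Of 6 listed transcriptional regulators of fuel metabolism, 1 passed an unadjusted p of 0.05 between G3 and G1 (NR3C1) and 1 between G2 and G1 (KLF15). The other 4 did not pass in either comparison, and between G3 and G1 PPARA had a log2 fold change of -0.15 (SE 0.38), PPARGC1A of -0.18 (SE 0.20), FOXO1 of -0.04 (SE 0.14) and FOXO3 of 0.05 (SE 0.15). KLF15, a transcription factor known to act on BCAT2 in muscle, had 26.4 ± 6.35 CPM in G1 (SD, n = 5), 19.7 ± 4.79 CPM in G2 (SD, n = 6) and 22.1 ± 1.37 CPM in G3 (SD, n = 6). Its log2 fold change was -0.42 (SE 0.19, unadjusted p = 0.0433, adjusted p = 0.840) between G2 and G1 and -0.27 (SE 0.15, adjusted p = 0.813) between G3 and G1. NR3C1, the glucocorticoid receptor, which acts on KLF15, had 0.32 (SE 0.14, unadjusted p = 0.0353, adjusted p = 0.813) between G3 and G1, and 0.12 (SE 0.18) with the EIF1AY level as a covariate. Over the 17 kidneys, with group means removed, r between BCAT2 and KLF15 was 0.04.

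The genes next to the members on their chromosomes were compared, since reads of overlapping genes can be shared where counting ignores the strand. SLC16A6 lies wholly within ARSG, a sulfatase gene at chr12:11751930-11882844. ARSG had 5.25 ± 1.43 CPM in G1 (SD, n = 5) and 4.54 ± 0.799 CPM in G3 (SD, n = 6), below SLC16A6 in level, with a log2 fold change of -0.22 (SE 0.21). The nearest measured genes beside it, WIPI1, AMZ2 and GNA13, had -0.05, 0.11 and 0.13. BCAT2 and ARRDC4 overlap annotated long noncoding RNAs (LOC106510565 and LOC106504490) that were not matched to a counted gene.

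Near BCAT2, PPP1R15A lies 48443 bases away at chr6:54172038-54175461 and also had its lowest mean in G3. It encodes GADD34, a stress-induced subunit that restores translation by dephosphorylating eIF2-alpha. PPP1R15A had 397 ± 41.8 CPM in G1 (SD, n = 5), 311 ± 73.0 CPM in G2 (SD, n = 6) and 291 ± 52.5 CPM in G3 (SD, n = 6). Its log2 fold change was -0.46 between G3 and G1 (SE 0.14, unadjusted p = 0.00407, adjusted p = 0.796) and -0.35 between G2 and G1 (unadjusted p = 0.0390, adjusted p = 0.840). PLEKHA4, which lies between the 2 genes, had 0.08 (SE 0.20) between G3 and G1. FUT1 on the other side had -0.11 (SE 0.29) and FGF21 was at 0.675 ± 0.102 CPM in G1 (SD, n = 5), too low to compare. Around ARRDC4, NR2F2 had 0.01 (SE 0.12) and RYR3 was near 0 CPM.

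The genes whose levels were most like those of each member across the kidneys were found by Pearson's r of log2 CPM after the group means were removed, over 17 kidneys and 13711 genes with a mean of at least 1 CPM. All genes of a kidney share its library and depth, so the values are a description. For BCAT2 they included KRT10 (r = 0.89), KLF16 (0.86), MTA3 (0.83) and C5orf15 (0.82), and at the other end an unnamed gene (ENSSSCG00000063467, -0.84), HARBI1 (-0.83), ASCC2 (-0.82), GRHL2 (-0.81) and ZFP62 (-0.80). For SLC16A6 they were CIDEA (0.82), BRD7 (0.81), ZDHHC21 (0.77), TK1 (0.75) and S100A12 (0.75), and the other end included LZTS1 (-0.84), CYRIA (-0.80) and 2 unnamed genes. For ARRDC4 they were IRGQ (0.88), GFRA2 (0.87), FNBP1L (0.84), UBE3A (0.83) and GART (0.83), and at the other end UBB (-0.79), AARS2 (-0.79), ADM (-0.77), UPF3A (-0.77) and 1 unnamed gene. Of the 5 most alike by Pearson's r, 2, 2 and 3 were also among the 5 most alike by Spearman's rho, and 0, 0 and 1 were among the 5 most alike by Pearson's r with the group means kept.

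In a biopsy, fewer cells of a type and less RNA per cell cannot be told apart. The tissue carried kidney markers in all groups. The summed level of 9 proximal tubule genes ran from 12007 to 17025 CPM in G1, from 12627 to 24198 CPM in G2 and from 13355 to 20674 CPM in G3, and no marker that was matched was at 0 in all kidneys. The summed level of the 4 podocyte markers matched of 5 ran from 144 to 173 CPM in G1, from 139 to 247 CPM in G2 and from 136 to 199 CPM in G3. Of the 5 endothelial markers matched of 6, all had a positive sign between G3 and G1 and 1 had an unadjusted p under 0.05, with sums of 690 to 791 CPM in G1 and 563 to 1013 CPM in G3. Between G3 and G2, all 5 stroma markers had a negative sign, with a median log2 fold change of -0.41. Of these, 2 had an unadjusted p under 0.05 in edgeR, as did 1.52% of all genes tested in the lower direction. Stroma sums were 392 to 763 CPM in G2 and 273 to 555 CPM in G3. The 3 erythroid markers matched of 4 were also all negative there (median -1.17), and 1 passed. Among them, HBB and ALAS2 were near the floor, with means of 0.894 and 0.260 CPM in G3. In the same direction, 1 of 6 distal and collecting duct markers and 1 of 4 podocyte markers passed. The part of cell makeup in the levels of BCAT2, SLC16A6 and ARRDC4 was not tested.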

How the data were processed

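RNA from 1 biopsy of each kidney was sequenced. The authors trimmed adapters with cutadapt 4.0, aligned the reads with STAR to Sscrofa11.1 and deposited the counts of each gene in each kidney as raw, unnormalized whole numbers. The counting program and its strand setting are not given in the sources used here. A deposited table of the authors' own comparison of G3 with G1 (fold changes and p-values) was not used.

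Groups came from the sample titles. Counts were fitted with the quasi-likelihood test of edgeR 4.0.16 in R 4.3.3 (TMM, genes counted at least 1 time in either group, Benjamini-Hochberg adjustment over all genes), with each pair of groups fitted apart. CPM used TMM over all 17 kidneys, and log2 CPM a prior count of 2. Alternatives were DESeq2 1.42.0, limma 3.58.1 (voom with sample weights), other size factors and filters, all 3 groups in one fit, code series, a replicate block and leaving out each kidney. Relations used scipy 1.17.1. The scripts were tested on simulated data. P-values rest on kidneys of separate animals, and the counts behind the members, 166 or more per kidney, keep counting error below the spread between kidneys.

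Symbols were known for 15093 of 26560 genes, and 208 of 221 listed symbols were matched. Positions are those of RefSeq on Sscrofa11.1. The members, the lists and the tests were chosen with earlier results of these data known. Named besides the members are the 3 nearest annotated genes on either side, the 5 genes most and least alike in level, and genes of each list with the lowest p or the role described. BCAT1, KLF15 and PPP1R15A fall under these rules, and EIF1AY was chosen after its values were seen. Some genes under these rules are not reported here. No sequence is printed.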

Additional observations from a re-analysis of the deposited data

Results flagged for a closer look

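In 4 of 66 sets of values tested (1 gene or library measure in 1 group), the highest or lowest kidney lay farther from the rest than Dixon's limit allows, which is 0.71 for 5 kidneys and 0.625 for 6. Chance alone flags about 1 in 20 such sets, or 3.3 of 66. SLC16A6 in G1 had a ratio of 0.796, from the low level of kidney 4. SLC16A6 in G2 had a ratio of 0.719, from the high level of kidney 1. PPM1K in G2 had a ratio of 0.677, from the high level of kidney 2. PPP1R15A in G2 had a ratio of 0.672, from 1 kidney with 451 CPM, above the others. Levels of EIF1AY that went against the label of 7 kidneys are given above with the values of each member beside them.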

How the results depend on the processing

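Of 219 values of the members' fold changes under other settings, 212 kept their direction and, between G2 and G1 and between G3 and G2, their side of the threshold. Between G3 and G1, which chose the members, no threshold was read and the size alone was compared. SLC16A6 between G3 and G2 ran from -0.39 to 0.036 when 1 kidney was left out, reversed without G2 kidney 1, and reversed to 0.051 without the kidneys with many EIF1AY counts. ARRDC4 between G3 and G2 reversed to -0.032 without those kidneys and to -0.0036 with EIF1AY as a covariate, and between G3 and G1, without them, SLC16A6 was at -0.47 and ARRDC4 at 0.11. Between G3 and G2, leaving out both G1 kidney 4 and G2 kidney 1 is the same fit as leaving out G2 kidney 1. Its 0.036 for SLC16A6 is thus counted again among the 219 values. The settings on EIF1AY and on kidneys left out together were chosen after seeing the data. Scaled by library size only, r of BCAT2 with SLC16A6 reversed to -0.034 in G2 and to 0.82 in G3.

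The count of genes called between G3 and G1 was 2 in edgeR. It was 29 in DESeq2, 11 with the code series as a covariate, 1 with filterByExpr, with at least 10 counts in every kidney and with voom, 0 with all 3 groups in one fit, and 0 to 9 when 1 kidney was left out. It was 42 without the kidneys with many EIF1AY counts, 1 with EIF1AY as a covariate, and 4 without G1 kidney 4. Between G2 and G1 the count of 0 became 1 in DESeq2 and 2 with the code series. Between G3 and G2 it became 3 in DESeq2, 1 with EIF1AY as a covariate, and 0 to 5 when 1 kidney was left out, with the 5 without G2 kidney 2. The cause of these shifts was not tested.

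With a replicate block, the counts were 9, 0 and 7. The kidney numbers share nothing in the labels but the number, and same-numbered kidneys correlated from -0.17 to 0.39 in their deviations, so the block was not used beside the results. Each kidney correlated best with its own number in 1 of 5 (G3 and G1), 0 of 5 (G2 and G1) and 1 of 6 (G3 and G2). Scaling by library size only moved the median of all genes between G3 and G1 from -0.02 to -0.11.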
